A study of Rattus norvegicus with 12 samples.

Results

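Gene expression in rat myocardium 14 days after a coronary artery was tied off was compared with myocardium of sham-operated rats, using 4 of the 12 arrays of the series. The 4 arrays were chosen by their labels alone. They were 1 diabetic and 1 non-diabetic pool at day 14, and 1 diabetic and 1 non-diabetic pool after the sham operation. All rats were male Sprague-Dawley. The diabetic rats received 1 injection of streptozotocin (STZ) at 65 mg/kg when 8 weeks old, and the non-diabetic rats received citrate buffer. STZ is a toxin that kills the pancreatic cells that make insulin, and blood sugar was left uncontrolled in both conditions. After 10 weeks the left anterior descending coronary artery was ligated without reperfusion, or a sham operation was done. The day 14 rats were 20 weeks old and the sham rats 18 weeks old, so age and time after surgery cannot be told apart. The arrays of the other days, used in the fits, came from rats 18 weeks old at day 1, 19 at day 7 and 22 at day 28. At day 56 the labels give 26 weeks for the diabetic and 22 weeks for the non-diabetic rats, so that pair does not match in age. Tissue came from the left ventricular free wall remote from the infarct, and each array held RNA pooled from 3 rats. The survival time after the sham operation is not given, and the sham arrays' tissue label mentions an infarct although the protocol describes a sham operation.

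After an infarct, heart muscle far from the dead tissue carries extra load. Fibroblasts there lay down collagen, which cross-linking enzymes harden into a lasting scaffold, while macrophages clear debris and steer repair. Working cardiomyocytes live mainly on fatty acids, and in failing hearts the enzymes of fatty acid oxidation are known to decline. In tissue RNA, fewer cells of a type and less RNA per cell cannot be told apart.

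Each value is the intensity of a probe set, a group of short probes for 1 transcript, on a linear scale without a unit in molecules. Differences are day 14 minus sham of log2(intensity + 16), which understates the difference of dim genes, and genes are not compared with each other by level. Of 18625 probe sets kept after a filter on low values, 14310 had 1 gene symbol and stood for 10623 genes. Within a condition the difference is 1 array against 1 array and has no test. A difference of 1 is a doubling for a bright gene. Genes were therefore sorted by size, into those at least 1 in size with the same sign in both conditions, those at least 1 in one condition and under 0.5 in the other, and those at least 1 with opposite signs.

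Day 14 and sham lay apart in both conditions most clearly in genes of the extracellular matrix. In all, 80 genes were higher by at least 1 in both conditions, or 0.753% of genes, and 27 were lower, or 0.254%. The higher group held the collagens Col1a1, Col1a2, Col3a1 and Col5a1. A further 114 genes (1.07%) were higher and 46 (0.433%) lower in the diabetic pools alone. In the non-diabetic pools alone 102 genes (0.96%) were higher and 379 (3.57%) lower. Opposite ways were taken by 10 genes (0.0941%) that were higher in diabetic and lower in non-diabetic pools, and by 1 gene (0.00941%) that was the reverse. Over all genes the difference had a median of 0.08 in diabetic pools and 0.03 in non-diabetic pools. Its SD was 0.47 in diabetic and 0.58 in non-diabetic pools. The 2 conditions share no array here, and across the 10623 genes their differences correlated with a Pearson r of 0.364 and a Spearman rho of 0.355, although genes are not independent.

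**Figure D1:**
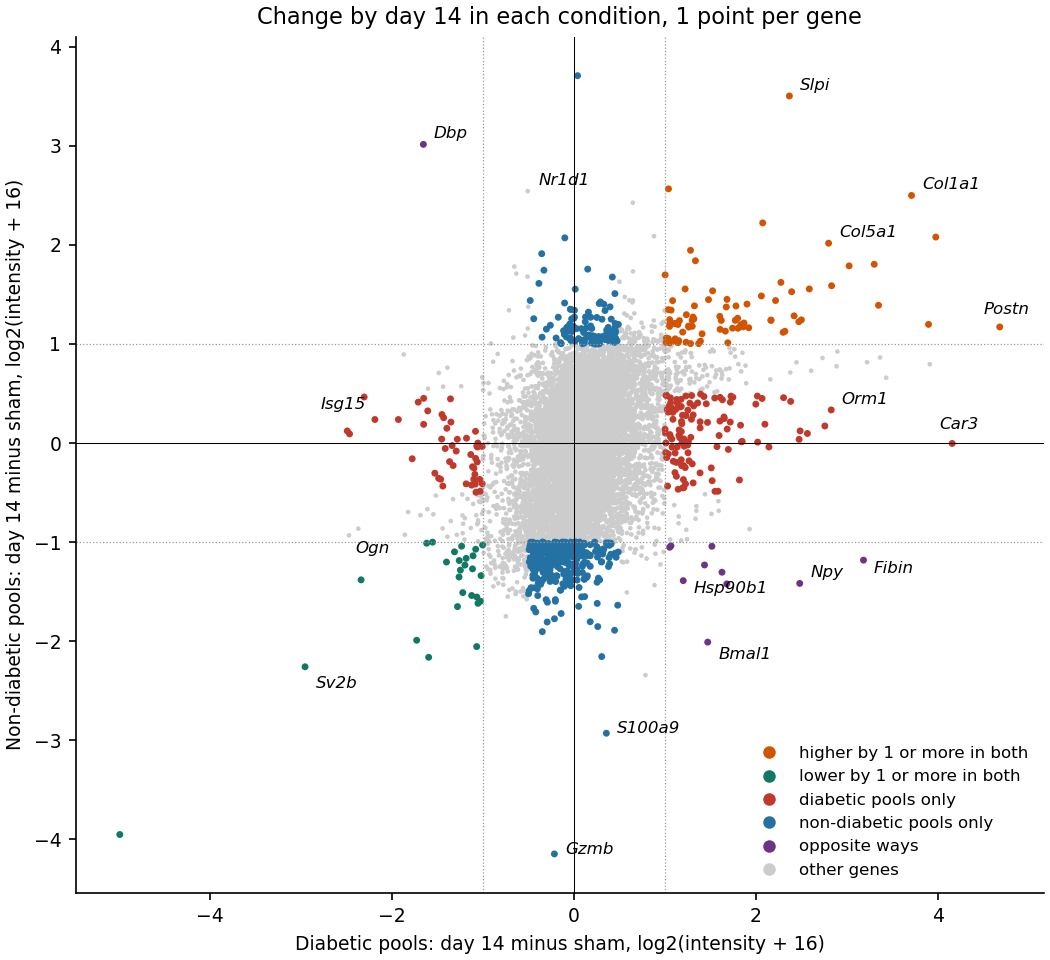
Day 14 minus sham in non-diabetic pools (vertical axis) against the same in diabetic pools (horizontal axis), both in log2(intensity + 16), with 1 point for each of 10623 genes and dotted lines at 1 and -1. Collagens lie at the upper right, and the non-diabetic lower group of 379 genes forms the dense band under -1.

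No probe set passed the test of day 14 against sham over both conditions. The test was limma, fitted to all 12 arrays with the time point and diabetes as terms and adjusted by Benjamini-Hochberg at 0.05. It called 0 of 18625 probe sets higher (0%) and 0 lower (0%), with a smallest adjusted p of 0.2863. At an unadjusted p under 0.05, limma had 1090 higher and 1082 lower. The spread behind it is how the diabetic minus non-diabetic difference varies over the 6 time points, in pools rather than single rats, and the number of arrays limits the precision. An exact permutation test of 2 arrays against 2 cannot go below a p of 0.333. With the 2 arrays of day 28 left out, limma called 47 probe sets, 39 higher and 8 lower. These stood for 34 genes, 29 higher (0.273% of genes) and 5 lower (0.0471%), and 28 of the 29 were among the 80 genes above. Both counts rest on the same 4 arrays of day 14 and sham, so this overlap is not independent. On the 4 arrays of day 14 and sham alone, with 1 residual degree of freedom, 179 probe sets were called, 120 higher and 59 lower, or 86 genes higher (0.81%) and 28 lower (0.264%). Every other offset, scaling and filter tried called 0, as did each fit without 1 of the 4 arrays or without the pair of another day.

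The fibrillar collagens form the ropes of the matrix. The list taken here holds them together with minor collagens such as Col6a1 and Col8a1. All 14 measured collagens of this list were higher at day 14 in diabetic pools. In non-diabetic pools 13 were higher, against 60% and 51.7% of all genes in diabetic and non-diabetic pools. Their median difference was 2.08 in diabetic and 1.24 in non-diabetic pools. At least 1 was reached by 12 of 14 in diabetic and 9 of 14 in non-diabetic pools, against 3.14% and 2.43% of all genes. In the fit over 12 arrays 0 of 14 passed. Without the day 28 arrays 7 of 14 passed, all higher, against 0.273% of all genes called higher.

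Col1a1 encodes the main chain of type I collagen. It read 3004 in the diabetic and 1616 in the non-diabetic pool at day 14, against 214.3 and 272.5 after sham. Both day 14 pools were far above both sham pools, and the diabetic one was the higher at day 14. The differences were 3.71 in diabetic and 2.50 in non-diabetic pools, and 3.11 ± 0.60 (SE) in the limma fit, with an adjusted p of 0.4019, or 0.004973 without the day 28 arrays. Leaving those arrays out removes a pair that lay far apart, at 371.5 in the diabetic and 2108 in the non-diabetic pool. A second probe set of Col1a1 had 4.39 and 2.83. Its partner chain Col1a2 read 3070 and 2046 at day 14 in diabetic and non-diabetic pools, against 416.6 and 670.1 after sham. Col3a1, the collagen of fine and distensible fibres, read 5799 and 3802 at day 14, against 1069 and 1552 after sham. For both genes no day 14 pool overlapped a sham pool, as their place in the class higher in both conditions makes likely. Col5a1, which starts fibril assembly, read 847.3 and 550.4 at day 14, against 107.8 and 123.8 after sham. It had the smallest adjusted p of all genes, at 2.41 ± 0.33 and 0.2863 with limma. Col8a1, a short-chain collagen of vessels and wounds, read 566.4 and 196.2 at day 14 against 41.12 and 64.92 after sham. The member nearest 0 was Col11a1, with 0.94 in diabetic and -0.01 in non-diabetic pools.

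The start of Col1a2 is shown because its gene was higher in both conditions and collagen promoters are known for a CCAAT box, bound by the factor NF-Y. The window of 250 bases before and 50 after the RefSeq start (build GRCr8, chr4:33518307-33518606, plus strand) holds the motif CCAAT once, on the opposite strand, 221 bases before the start, in capitals:
Col1a2: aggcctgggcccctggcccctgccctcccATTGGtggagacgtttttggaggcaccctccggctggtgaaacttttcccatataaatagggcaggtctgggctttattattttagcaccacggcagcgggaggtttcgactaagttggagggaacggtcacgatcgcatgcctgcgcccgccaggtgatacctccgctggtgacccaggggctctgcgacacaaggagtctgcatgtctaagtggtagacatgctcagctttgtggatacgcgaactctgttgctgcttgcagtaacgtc
CCAAT on either strand was in 33.3% of the 9 listed collagens with a window (Col1a2, Col5a3 and Col11a1), against 37.5% of all 33469 windows. The box was thus no more common in these windows than elsewhere.

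Enzymes that fold, trim and cross-link collagen were above 0 in 11 of 11 measured genes in diabetic and 9 of 11 in non-diabetic pools, with medians of 1.59 and 0.46. Loxl1, which cross-links elastin and collagen, read 1032 and 561.6 at day 14 in diabetic and non-diabetic pools, against 90.25 and 149.2 after sham. Pcolce, which speeds removal of the collagen propeptide, read 555.4 and 414.5 at day 14, against 147.6 and 176.8 after sham. These were higher in both conditions. Plod1, a lysyl hydroxylase, had nearly equal differences of 0.95 in diabetic and 0.95 in non-diabetic pools. Other members differed by condition, and those named next, apart from Lox and Serpinh1, were chosen after their values were seen. Lox, the founding lysyl oxidase, read 334.7 in the diabetic and 63.5 in the non-diabetic pool at day 14, against 46.53 and 57.04 after sham. A second probe set of Lox had 3.03 in diabetic and 0.96 in non-diabetic pools, so its non-diabetic size is uncertain. Plod2, the lysyl hydroxylase of collagen telopeptides, read 340.3 and 86.86 at day 14 against 64.58 and 89.78 after sham. P4ha1, a prolyl hydroxylase that stabilises the triple helix, read 567.6 and 146.3 at day 14 against 177.5 and 244.8 after sham. For Lox, Plod2 and P4ha1 the diabetic day 14 pool stood well above the other 3. Serpinh1, the collagen chaperone, read 2124 and 1383 at day 14 against 620.6 and 1000 after sham, with both day 14 pools above both sham pools. The test of the difference between conditions is given with the genes of opposite direction.

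Matricellular proteins, which signal in healing matrix rather than bear load, were above 0 in 12 of 13 genes in each condition, with medians of 1.56 in diabetic and 0.66 in non-diabetic pools. Postn, the periostin of activated fibroblasts, read 1808 in the diabetic and 152.6 in the non-diabetic pool at day 14, against 55 and 58.81 after sham. Its difference of 4.68 in diabetic pools was the highest of all 10623 genes, beside 1.17 in non-diabetic pools. Thbs4, a thrombospondin of stressed muscle, read 392.3 and 100.3 at day 14 against 11.09 and 51 after sham. Fn1, the fibronectin of early scar, read 944.8 and 354 at day 14 against 128.4 and 188.1 after sham. In these 3 genes both day 14 pools exceeded both sham pools, by most in the diabetic pair. Ccn2, known as connective tissue growth factor, read 2520 and 840.9 at day 14 against 575.1 and 735.2 after sham. Tnc, the tenascin of wound edges, had 1.56 in diabetic and 0.69 in non-diabetic pools. Spp1, osteopontin of macrophages and injured tissue, ran the other way in size, at 218.1 and 246.9 on day 14 against 80.19 and 52.22 after sham.

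The basement membrane list, the sheet proteins around myocytes and capillaries, had the closest medians in the 2 conditions among the 6 matrix lists. All 15 measured members were above 0 in both, against 36.7% of all genes, with medians of 0.74 in diabetic and 0.69 in non-diabetic pools, and only 6 of the 15 had the larger difference in diabetic pools. Sparc, which binds collagen IV and guides its deposition, read 2473 and 3541 at day 14 in diabetic and non-diabetic pools, against 1183 and 1483 after sham. Its differences were 1.05 in diabetic and 1.25 in non-diabetic pools, or 1.15 ± 0.22 (SE) with limma, adjusted p 0.4019, and its second probe set had 1.39 and 0.68. Col4a2, a network collagen, read 497.1 and 1141 at day 14 against 239.8 and 340.3 after sham. In both genes, which belong to the class higher in both conditions, the day 14 pools lay above the sham pools. Lama4, a laminin chain of vessels, had 1.22 in diabetic and 0.69 in non-diabetic pools. Hspg2, the perlecan core protein, had 0.60 and 1.17.

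Col4a1 and Col4a2 lie head to head, and their shared start is shown because both genes were higher together. The RefSeq windows of Col4a1 (GRCr8, chr16:84885347-84885646, plus strand) and Col4a2 (chr16:84885471-84885770, minus strand) share 176 bases, with starts 77 bases apart. The Col4a2 window, read on its own strand, holds CCAAT once, 105 bases before the start, in capitals:
Col4a2: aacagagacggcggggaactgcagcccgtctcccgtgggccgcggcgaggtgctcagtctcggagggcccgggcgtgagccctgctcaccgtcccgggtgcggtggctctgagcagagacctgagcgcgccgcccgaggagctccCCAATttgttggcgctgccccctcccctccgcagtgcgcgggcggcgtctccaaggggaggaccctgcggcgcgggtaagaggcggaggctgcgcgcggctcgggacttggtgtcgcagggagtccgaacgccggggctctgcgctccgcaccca
CCAAT was in 30.8% of the 13 listed basement membrane genes with a window, below its share of 37.5% in all windows. These were Col4a1, Col4a2, Lama2 and Nid1. The marked box lies in the bases that the Col4a1 and Col4a2 windows share, so 1 site counts for both genes. It lies past the Col4a1 start and not between the 2 starts. Col4a1 and Col4a2 also sat on either side of the size limit, at 1.00 in diabetic pools each when rounded. Col4a2, at 1.00 and 1.70, was just inside the class of genes higher in both, and Col4a1, at 1.00 and 1.34, just outside. Among genes lower in both, Pnpla8, at -1.55 in diabetic pools and just past -1 in non-diabetic pools, was just inside and Csdc2 at -1.05 and -0.99 just outside.

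Small proteoglycans and elastic fibre proteins were above 0 in 13 of 15 genes in diabetic and 10 of 15 in non-diabetic pools, with medians of 1.39 and 0.81. Ltbp2, a microfibril protein, read 348 and 116.6 at day 14 in diabetic and non-diabetic pools, against 7.069 and 15.36 after sham. Fbn1, fibrillin of the microfibril core, read 1284 and 635.1 at day 14 against 143.5 and 172.5 after sham. Eln, elastin itself, read 544.7 and 314.4 against 77.16 and 96.41, although a second probe set of Eln gave smaller differences of 0.80 and 0.45. Ogn, osteoglycin, went against the list. It read 445.6 and 410.2 at day 14, against 1656 and 793.9 after sham, with both day 14 pools below both sham pools. Dcn, decorin of resting fibroblasts, read 3007 and 1765 at day 14 against 3271 and 4078 after sham, and only its non-diabetic difference, -1.20, was large. Ogn and Dcn were chosen after their values were seen. Among proteases and inhibitors, 10 of 12 were above 0 in diabetic and 7 of 12 in non-diabetic pools. Timp1, an inhibitor of matrix metalloproteinases, read 765.3 and 541.8 at day 14 against 132.6 and 177.4 after sham. Mmp14, a membrane protease that activates Mmp2, had 1.61 and 0.74, while its second probe set had 0.19 and -0.34. Mmp2, a gelatinase, had 1.71 and 0.75, while its second probe set had -0.20 and 0.66. Their directions are therefore uncertain.

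Over the 6 matrix lists together, 80 genes were measured. In diabetic pools 75 were above 0 and 51 reached 1, and in non-diabetic pools 66 were above 0 and 28 reached 1. The difference was larger in diabetic pools for 63 of the 80, against 56.2% of all genes. Of the genes higher in both conditions, 25 of 80 (31.2%) were on a matrix list, and of those higher in diabetic pools alone 8 of 114 (7.02%) were. The matrix lists hold 80 of the 10623 genes, and these classes hold 0.753% and 1.07% of all genes. These 8 were Aspn, Ccn2, Fbln2, Lox, Lum, Plod2, Serpinh1 and Thbs2. The median log2 level of the 80 matrix genes by array was 9.05 in the diabetic and 8.41 in the non-diabetic pool at day 14, against 7.25 and 7.48 after sham. At day 28 it was 7.47 in the diabetic and 8.87 in the non-diabetic pool, and at day 56 it was 7.97 and 7.21. The order of the conditions thus differed between day 14 and day 28, with 1 pool behind each value.

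**Figure D2:**
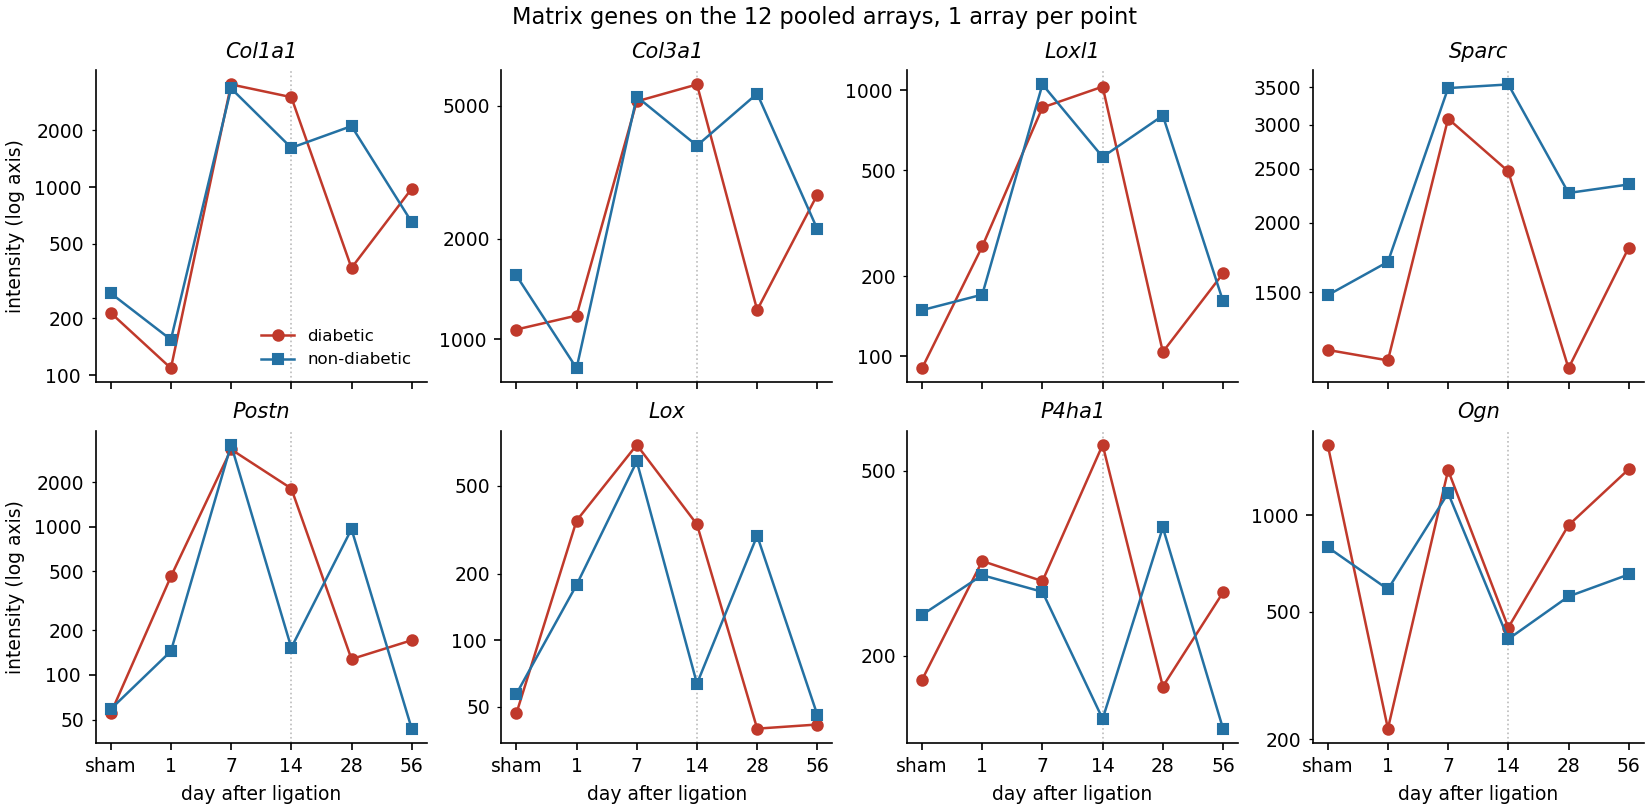
Intensity of 8 matrix genes on a log axis against the day after ligation (sham first, days evenly spaced), 1 array per point, circles for diabetic and squares for non-diabetic pools, with a dotted line at day 14. Postn, Lox and P4ha1 part by condition at day 14, while Col1a1 is far above sham in both pools, at 3004 in the diabetic and 1616 in the non-diabetic one, and Ogn is below sham in both.

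Fibroblast markers moved with the matrix genes in the diabetic pair. Of 14 measured markers, 13 were above 0 in diabetic and 7 in non-diabetic pools, with medians of 1.03 and 0.16. Their summed intensity was 16400 in the diabetic and 8657 in the non-diabetic pool at day 14, against 8117 and 10040 after sham, and 8021 and 15840 at day 28. In non-diabetic pools 3 of the 14 reached 1 and 3 were at or below -1, against 2.43% and 5.22% of all genes. Thy1, a surface protein of fibroblasts and other cells, was higher in both, at 71.37 and 85.28 against 14.34 and 18.91. Pdgfra read 596 and 214 at day 14 against 336 and 501 after sham. Dpt read 3060 and 1070 against 1910 and 2270, so both were lower in non-diabetic pools. The list shares Col1a1, Dcn, Fbln1, Lum and Mfap5 with the matrix lists. What share of the matrix differences goes with fibroblast number was not tested. Among TGF-beta genes, the main profibrotic signal, the medians were 0.18 in diabetic and 0.06 in non-diabetic pools. Tgfb1 had 0.42 and 0.92, Tgfb3 had 1.29 and 0.24, and Tgfbr3, an accessory receptor, had -0.02 and -1.15, with a second probe set at -0.13 and 0.39.

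**Figure D3:**
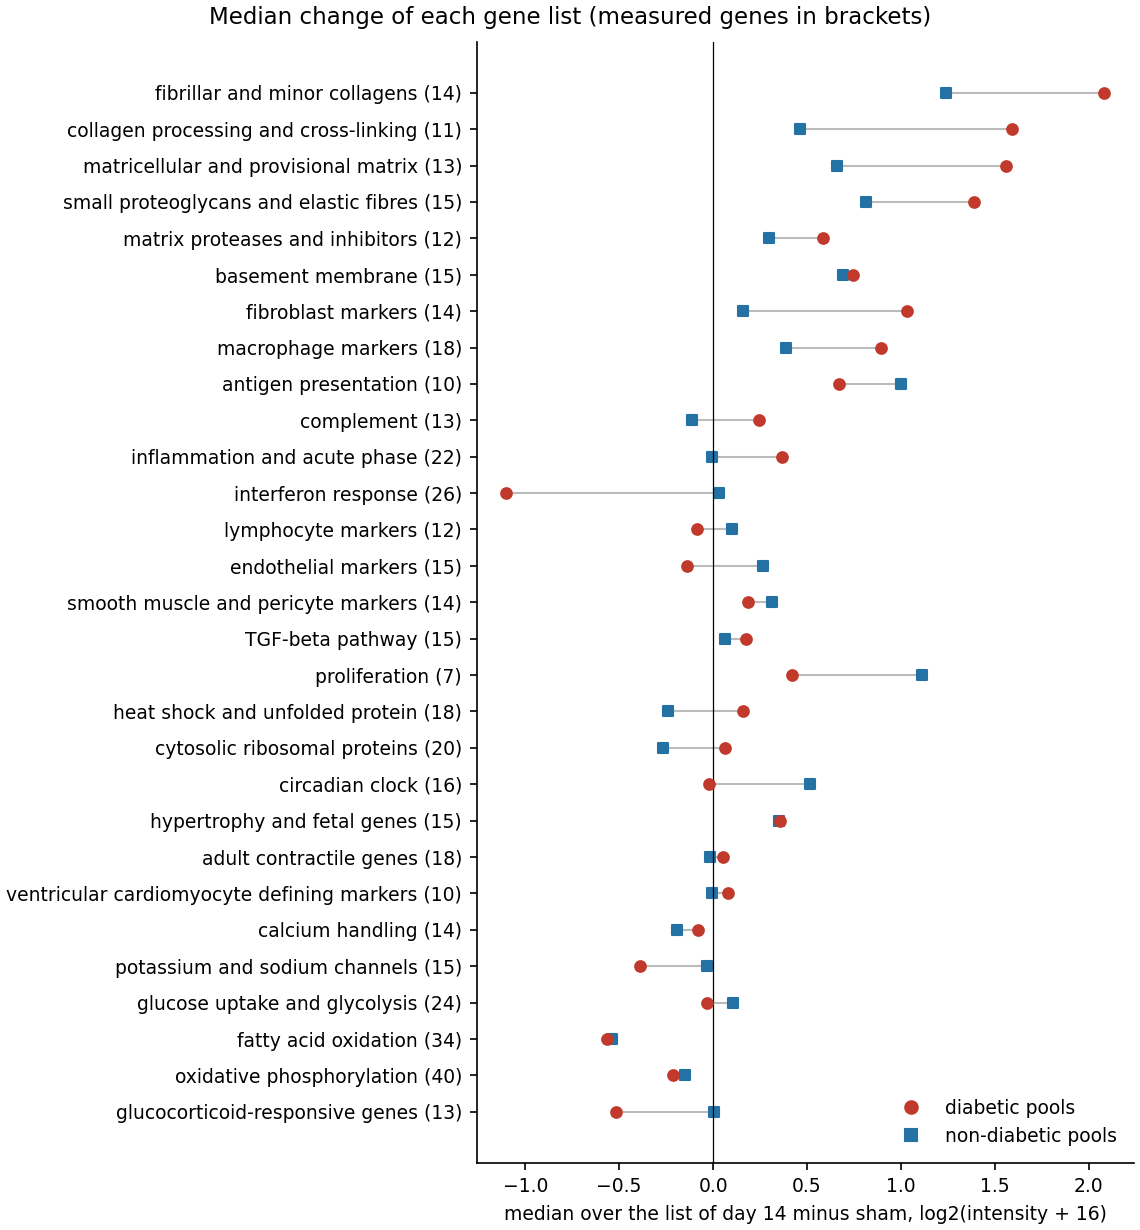
Median of day 14 minus sham, in log2(intensity + 16), over the measured genes of 29 lists, circles for diabetic and squares for non-diabetic pools. Collagens have the highest medians, at 2.08 and 1.24, the interferon list the lowest in diabetic pools, at -1.10, and fatty acid oxidation lies below 0 in both.

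Outside the matrix, Slpi, a protease inhibitor of inflamed surfaces, read 129.3 and 241.5 at day 14 in diabetic and non-diabetic pools, against 12.11 and 6.677 after sham. It was 2.94 ± 0.56 (SE) higher, adjusted p 0.4019 with limma, or 0.04788 without the day 28 arrays. Wfdc1, a secreted protein of the same domain family, read 322.4 and 534.3 at day 14 against 53.84 and 162.8 after sham. C1qtnf6, a secreted relative of complement C1q, read 81.66 and 113.7 against 29.22 and 40.12. Cntnap1, a contactin-associated membrane protein, read 28.87 and 43.08 against 4.86 and 12.84. All 4 had both day 14 pools above both sham pools. Their choice by a rise of at least 1 in both conditions makes this likely. Of the other genes named by smallest p, Ttc28 had 1.04 in diabetic and 1.05 in non-diabetic pools. Unc5b, a netrin receptor, had 1.15 and 1.01, with a second probe set of Unc5b at 0.23 and 0.15. Dcakd had 1.07 and 1.34, but its second probe set had -0.11 and -0.50, the opposite direction. The other probe sets of Ttc28 were above 0 in both conditions and under 1. Sp3, a transcription factor, read 44.08 and 26.4 at day 14 against 0.05021 and 0.03552 after sham, and values so close to 0 have little meaning as a level.

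Among the 27 genes lower in both conditions, Sv2b, a synaptic vesicle glycoprotein, read 243.1 and 199.2 at day 14 in diabetic and non-diabetic pools, against 1993 and 1015 after sham. Its difference was -2.61 ± 0.68 (SE), adjusted p 0.4019 with limma, or 0.005684 without the day 28 arrays. Ivns1abp, a kelch protein that binds actin and a viral factor, read 686.4 and 292 at day 14 against 2108 and 1364 after sham. Ptprr, a tyrosine phosphatase acting on MAP kinases, read 347.2 and 358.4 against 942.6 and 845.3. In these genes the day 14 and sham pools did not overlap. Their choice by a fall of at least 1 in both conditions makes this likely. Cyyr1 read 116.1 and 97.6 against 291.9 and 307.7, and Lsmem1 read 25.64 and 34.38 against 194.8 and 115.3. Vegfa, the growth factor of capillaries, read 273.6 and 205.8 at day 14 against 590.1 and 636.1 after sham, and was named after its value was seen. Rnf6, a ubiquitin ligase, read 0.00399 and 0.005348 at day 14 against 37.02 and 47.68 after sham, again with values too near 0 to be read as levels. Fam111a, also singled out after its value was seen, read 21.84 and 29.45 at day 14 against 1189 and 688.5 after sham. On the other 8 arrays Fam111a swung between 3.345 and 1892 with no common course in the 2 conditions.

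Genes of fatty acid oxidation were lower at day 14 as a group in both conditions. Of 34 measured genes, 24 were below 0 in both, against 25% of all genes, and the medians were -0.56 in diabetic and -0.54 in non-diabetic pools. None of the 34 passed the limma test over 12 arrays. On the 4 arrays alone 5 passed, all lower, against 0.264% of all genes called lower. Acaa2, the mitochondrial thiolase of the last step, read 2295 and 2195 at day 14 in diabetic and non-diabetic pools, against 4778 and 3786 after sham. It had -0.92 ± 0.23 (SE) with limma, adjusted p 0.4019, while a second probe set had -1.28 in diabetic and -0.23 in non-diabetic pools. Etfdh, which hands electrons from fat oxidation to the respiratory chain, read 830.8 and 506.3 at day 14 against 1476 and 1225 after sham. Decr1, needed for unsaturated fatty acids, read 1778 and 591.9 against 3054 and 1623. Acadl, the long-chain acyl-CoA dehydrogenase, read 3394 and 2888 against 5017 and 5077. The day 14 pool was below the sham pool of its own condition in each of these genes.

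Within the list the conditions parted in places. Cd36, the fatty acid importer, read 2757 in the diabetic and 916 in the non-diabetic pool at day 14, against 3956 and 2766 after sham. Acadvl, the very-long-chain dehydrogenase, had -0.89 in diabetic and 0.11 in non-diabetic pools, and Acads, the short-chain one, -0.77 and 0.23. These 3 were chosen after their values were seen. Pdk4, the kinase that closes off pyruvate dehydrogenase and is known to be high in diabetes, read 1642 and 138.3 at day 14 against 2937 and 312.8 after sham. Angptl4, an inhibitor of lipoprotein lipase, went the other way from most of the list, at 454.7 and 10.98 against 154.5 and 2.155. In the respiratory chain 26 of 40 genes were below 0 in both conditions, with medians of -0.22 in diabetic and -0.15 in non-diabetic pools. Cox7b, a subunit of cytochrome c oxidase, read 4734 and 2464 at day 14 against 6335 and 5533 after sham. Glycolytic genes had medians of -0.03 and 0.11, and Hk1, the hexokinase of basal glucose use, had 0.57 and 0.52, with a second probe set at -0.09 and 0.08.

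Contractile genes of the adult ventricle stayed close to sham. Their medians were 0.05 in diabetic and -0.02 in non-diabetic pools over 18 genes, the second of which changes sign when arrays are scaled to equal medians or by quantiles. Myh6, the fast cardiac myosin, had 0.14 and 0.03, and its second probe set had -0.35 and 0.21. Atp2a2, the calcium pump of the sarcoplasmic reticulum, had 0.05 and -0.22, but its 3 other probe sets disagreed, one with 0.51 and 0.98. Genes of load and fetal type had medians of 0.36 in diabetic and 0.35 in non-diabetic pools. Nppa, the atrial natriuretic peptide, read 7200 and 5916 at day 14 in diabetic and non-diabetic pools, against 5725 and 2229 after sham. Nppb, the brain natriuretic peptide, read 3842 and 4122 against 2044 and 2542. For both peptides the day 14 pools lay above the sham pools. Of ion handling genes, Trdn, the triadin of the calcium release unit, had -1.44 and -0.86. Kcna5, a channel of the ultrarapid potassium current, read 23.3 and 47.61 at day 14 against 80.29 and 51.3 after sham.

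Macrophage markers were above 0 in 17 of 18 genes in diabetic and 12 of 18 in non-diabetic pools, with medians of 0.90 and 0.39. Their summed intensity was 8422 and 6345 at day 14 in diabetic and non-diabetic pools, against 4909 and 5720 after sham. Cd68, a lysosomal protein of phagocytes, read 218.8 and 258.9 at day 14 against 113.7 and 105.2 after sham. Cd14, the co-receptor for endotoxin, had 1.04 in diabetic and 0.70 in non-diabetic pools, and Csf1r, the receptor for the macrophage growth factor, 0.77 and 0.79. The mannose receptor Mrc1, singled out after its value was seen, had 0.89 in diabetic and -0.86 in non-diabetic pools. Genes that present antigen on MHC class II were higher in both, with medians over the list of 0.67 in diabetic and 1.00 in non-diabetic pools and 8 of 10 genes above 0 in both. RT1-Db1, a class II beta chain, read 236.2 and 351.9 at day 14 against 85.73 and 136.3 after sham. RT1-DMb, which loads peptides onto class II, had 0.67 and 1.11. Neither list had a member past the test.

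Genes of the interferon response parted by condition. In diabetic pools 25 of 26 measured genes were below 0 and 14 were at or below -1, against 1.08% of all genes. In non-diabetic pools 12 were below 0 and 4 at or below -1, against 5.22% of all genes. The medians were -1.10 in diabetic and 0.03 in non-diabetic pools. Of the 46 genes lower in diabetic pools alone, 7 (15.2%) were on this list, namely Cxcl10, Cxcl9, Irf7, Isg15, Mx1, Oas1a and Usp18. Of the 27 lower in both, 3 (11.1%) were, namely Cxcl11, Ifit3 and Rsad2. The list holds 26 of the 10623 genes, and these classes hold 0.433% and 0.254% of all genes. In the limma fit 0 of 26 passed.

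Isg15, a ubiquitin-like modifier that interferon induces, read 81.64 in the diabetic and 183 in the non-diabetic pool at day 14, against 428.5 and 152.8 after sham. The diabetic sham pool was the highest of the 4 and the diabetic day 14 pool the lowest. Irf7, the master regulator of type I interferon, read 216.8 and 620.7 at day 14 against 692.4 and 492.5 after sham. Oas1a, which senses viral RNA, read 116.9 and 209.3 against 347.7 and 203.1. Mx2, an antiviral GTPase, read 34.28 and 28.73 against 161.7 and 56.53. In each of these the diabetic sham pool was again above the non-diabetic sham pool. Ifih1, the sensor MDA5, was lower in both, at 31.84 and 7.649 against 69.1 and 47.15. Ifit3, an antiviral protein, read 61.29 and 33.11 against 221.2 and 83. The exception in diabetic pools was Ifit1, a relative of Ifit3, at 35.28 and 53.52 against 1.967 and 98.16. On other arrays Isg15 ranged from 31.3 to 987.6, the highest being the diabetic pool of day 7.

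The starts of Irf7 and Oas1a are shown because both were lower in diabetic pools alone and carry an interferon-stimulated response element, the site bound by interferon-activated factors. It was searched on both strands as GAAA, any 2 bases, and GAAA again. The window of Irf7 (RefSeq, GRCr8, chr1:205799974-205800273, minus strand) holds 1 match on the opposite strand, 69 bases before the start, and that of Oas1a (chr12:41330216-41330515, plus strand) holds 2 overlapping matches, 41 and 35 bases before it, in capitals:
Irf7: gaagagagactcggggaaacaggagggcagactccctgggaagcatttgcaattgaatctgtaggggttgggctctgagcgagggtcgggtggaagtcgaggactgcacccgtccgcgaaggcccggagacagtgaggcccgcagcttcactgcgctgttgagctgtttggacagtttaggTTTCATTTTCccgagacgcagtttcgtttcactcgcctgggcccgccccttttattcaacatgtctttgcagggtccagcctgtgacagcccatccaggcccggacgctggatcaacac
Oas1a: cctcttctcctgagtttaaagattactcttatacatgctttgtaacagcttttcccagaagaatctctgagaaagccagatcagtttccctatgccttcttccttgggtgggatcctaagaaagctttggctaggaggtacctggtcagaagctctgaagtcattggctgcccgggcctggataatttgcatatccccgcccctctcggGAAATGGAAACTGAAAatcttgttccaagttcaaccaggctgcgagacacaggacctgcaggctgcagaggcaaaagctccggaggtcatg
The motif was in 11 of 19 interferon genes with a window (57.9%), against 3.92% of all windows. All 11 with the motif were below 0 in diabetic and 5 in non-diabetic pools. Of the 8 without it, 8 were below 0 in diabetic and 4 in non-diabetic pools, so the motif did not separate the members by direction.

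Over the heat shock and unfolded protein list, 16 of 18 genes had the larger difference in diabetic pools, against 56.2% of all genes, with medians of 0.16 in diabetic and -0.24 in non-diabetic pools. Calr, calreticulin, read 2034 in the diabetic and 1440 in the non-diabetic pool at day 14, against 730.9 and 1091 after sham. Hspa5, the main chaperone BiP, read 1987 and 867.2 at day 14 against 770.7 and 1403 after sham. Pdia4, a disulfide isomerase, read 381 and 134.8 against 116.3 and 195.3. Hsp90b1, the chaperone GRP94, which is not on the list, read 1203 and 338.2 against 513.6 and 912.2. In Hspa5, Pdia4 and Hsp90b1, which were chosen after their values were seen, the diabetic pool was the higher at day 14 and the non-diabetic pool the higher after sham. Hspd1, a mitochondrial chaperone, was lower in both, at 1435 and 949.3 at day 14 against 2023 and 2021 after sham. Dnaja1, a cytosolic co-chaperone, read 680.2 and 288.8 against 624.9 and 877. No member passed the test of day 14 against sham.

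The starts of Hspa5 and Calr are shown because they hold the endoplasmic reticulum stress element, which the unfolded protein response acts through. It was searched on both strands as CCAAT, any 9 bases, and CCACG. The Hspa5 window (RefSeq, GRCr8, chr3:38452766-38453065, plus strand) has it 43 bases before the start, and the Calr window (chr19:40213117-40213416, plus strand) has it on the opposite strand, 232 bases before the start, in capitals:
Hspa5: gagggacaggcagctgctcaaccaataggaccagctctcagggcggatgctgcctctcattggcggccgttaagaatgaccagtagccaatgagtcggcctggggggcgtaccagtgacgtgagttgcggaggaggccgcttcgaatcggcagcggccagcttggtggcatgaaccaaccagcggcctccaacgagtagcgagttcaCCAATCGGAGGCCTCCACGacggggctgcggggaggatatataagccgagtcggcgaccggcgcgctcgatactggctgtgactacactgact
Calr: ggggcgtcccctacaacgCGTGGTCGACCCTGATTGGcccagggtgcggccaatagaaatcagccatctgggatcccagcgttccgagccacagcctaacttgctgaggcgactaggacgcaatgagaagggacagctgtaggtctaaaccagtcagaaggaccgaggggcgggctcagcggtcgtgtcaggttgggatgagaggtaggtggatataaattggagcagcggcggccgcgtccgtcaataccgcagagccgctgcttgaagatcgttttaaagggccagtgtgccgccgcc
It was in 3 of 17 listed genes with a window (17.6%), namely Hspa5, Xbp1 and Calr, against 0.0657% of all windows, or 22 of 33469. Its first 5 bases are the CCAAT searched above, and both windows are counted there too. Xbp1, a transcription factor of this response, read 822.2 and 735.7 at day 14 in diabetic and non-diabetic pools, against 430.6 and 715.4 after sham.

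Among 16 measured clock genes, whose level follows the hour of the day, 2 took opposite ways by at least 1, Dbp and Bmal1. Dbp, a clock output factor, read 93.66 in the diabetic and 526.4 in the non-diabetic pool at day 14, against 329.1 and 51.08 after sham. Its differences were -1.65 in diabetic and 3.02 in non-diabetic pools. Bmal1, which peaks opposite to Dbp, read 52.57 and 8.126 at day 14 against 8.717 and 81.24 after sham. Its differences were 1.47 and -2.01, the mirror of Dbp. Nr1d1, the repressor of Bmal1, read 82.04 and 245.7 against 123.3 and 28.86. Nr1d2, its relative, read 154.9 and 159.7 against 520.8 and 138.2. Per3, a period gene, had 0.02 and 1.55, and its non-diabetic sham value of 0.006202 is too near 0 to be a level. Bhlhe40, a repressor within the clock, was higher in both, at 0.65 and 1.42. The labels used here give no hour of sampling, and its part in these values was not tested. The E-box CACGTG, bound by Clock and Bmal1, was in 4 of 14 clock genes with a window (28.6%), namely Nr1d1, Tef, Bhlhe40 and Bhlhe41, against 6.42% of all windows.

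**Figure D4:**
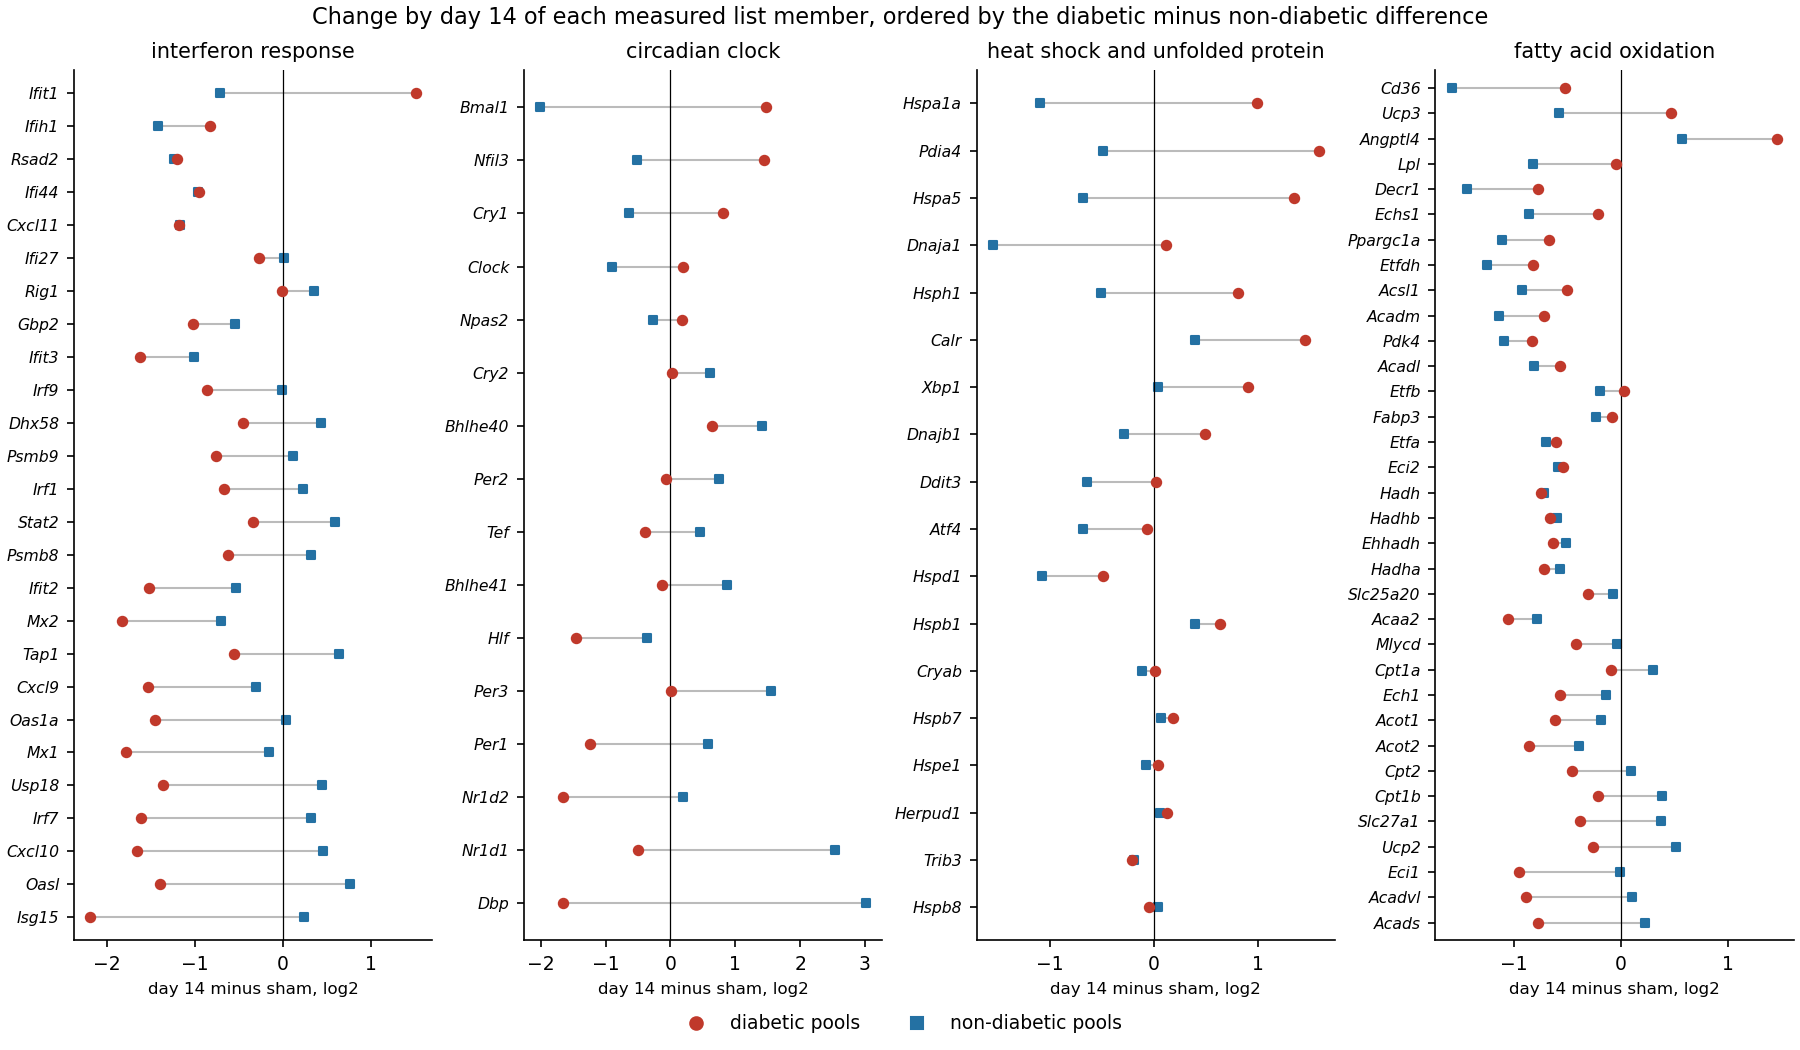
Day 14 minus sham of each measured member of 4 lists, in log2(intensity + 16), circles for diabetic and squares for non-diabetic pools, sorted within a list by the diabetic minus non-diabetic difference. Interferon genes lie left of 0 in 25 of 26 diabetic values, clock genes spread to both sides from Bmal1 to Dbp, and fatty acid oxidation genes lie left of 0 in both conditions in 24 of 34 cases.

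The other genes with opposite signs included Npy, the neuropeptide of sympathetic nerves. It read 364.9 in the diabetic and 243 in the non-diabetic pool at day 14, against 52.08 and 676.3 after sham. Fibin, a secreted protein first described in fin bud, read 749.3 and 42 at day 14 against 68.15 and 115.7 after sham, but a second probe set of Fibin had 2.87 in diabetic and only -0.18 in non-diabetic pools. Tmem100, a membrane protein of endothelium, read 310.2 and 59.78 against 89.43 and 171.2. Dusp6, a phosphatase of ERK, had 1.68 and -1.42, which its other probe sets did not share, at 0.07 and -1.09 for one and -0.10 and 0.08 for the next. The test of the difference between conditions found nothing past the threshold. For the diabetic minus non-diabetic difference of day 14 minus sham, limma with 3 residual degrees of freedom called 0 of 18625 probe sets higher (0%) and 0 lower (0%). At an unadjusted p under 0.05 there were 417 higher and 97 lower, and the smallest adjusted p was 0.9995. Each contrast between the conditions is therefore a description of 1 pool against 1 pool on each side.

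Among genes higher in diabetic pools alone, Car3, carbonic anhydrase of muscle and fat, read 531.6 at day 14 in the diabetic and 14.47 in the non-diabetic pool, against 14.64 and 14.57 after sham. On the other arrays Car3 was bright in both day 7 pools, at 513.9 in the diabetic and 862.7 in the non-diabetic one. Summed adipocyte markers, a list that holds Car3, were 4165 and 2300 at day 14 against 5992 and 3961 after sham. Most of each sum was Fabp4, at 3200 and 1920 at day 14 against 5450 and 3540 after sham. Adipoq, Plin1, Lep and Cidec read at most 16.4 on these arrays, too dim to follow fat cells. Whether Car3 goes with fat tissue was not tested. Orm1, an acute phase plasma protein, read 201.3 and 18.26 against 14.56 and 11.18. Sfrp4, a secreted Wnt antagonist, read 395.1 and 55.47 against 57.85 and 53.66. Igsf10 read 301.5 and 81.61 against 30.87 and 70.65, and C1qtnf3, a secreted C1q relative, read 94.49 and 4.681 against 2.629 and 3.343. In these genes the diabetic day 14 pool stood alone above the other 3, which follows largely from the rule of their class. Ptgs2, the inducible cyclooxygenase, had 2.02 in diabetic and 0.01 in non-diabetic pools and was singled out after its value was seen.

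Among genes lower in diabetic pools alone, Ephx2, the soluble epoxide hydrolase, read 71.88 at day 14 in the diabetic and 307.5 in the non-diabetic pool, against 478 and 281.2 after sham. Ddx60, an RNA helicase of antiviral defence, read 4.161 and 17.31 against 95.43 and 15.25. The class I MHC genes RT1-T24-3 and RT1-N2 read 192.8 and 742.1 against 1016 and 533.5 for RT1-T24-3, and 2.507 and 41.67 against 54.46 and 32.92 for RT1-N2. Genes of this family are near copies of each other, so a probe set may read more than one of them. Zfp827 had -1.71 and 0.41, which its other probe sets did not share, at 0.11 and -0.47 for one and 0.41 and 0.61 for the next.

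The largest class was the 379 genes lower in non-diabetic pools alone. Of these, 4 (1.06%) were cytosolic ribosomal protein genes and 2 (0.528%) were on the heat shock list. The 2 lists hold 20 and 18 of the 10623 genes. The class took in 20% of the ribosomal list and 11.1% of the heat shock list, against 3.57% of all genes. Cytosolic ribosomal protein genes had medians of 0.07 in diabetic and -0.27 in non-diabetic pools, with 18 of 20 larger in diabetic pools. Rpl5, a protein of the large subunit, read 3635 and 1138 at day 14 in diabetic and non-diabetic pools, against 4187 and 3439 after sham. Ribosomal protein genes have many near-identical pseudogenes, so their signal may be shared. The size of this class moved with the scaling of arrays. Non-diabetic pools alone had 102 higher and 379 lower as deposited, against 148 and 290 with equal array medians and 170 and 254 after quantile normalization.

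Gzmb, a granule protease of killer lymphocytes, read 518.7 in the diabetic and 26.79 in the non-diabetic pool at day 14, against 604 and 743.4 after sham. A second probe set of Gzmb had -0.71 in diabetic and -0.59 in non-diabetic pools, so its probe sets disagree. S100a9, a calcium-binding protein of neutrophils, read 166.6 and 14.98 at day 14 against 126.5 and 220.3 after sham. Its partner S100a8 read 52.62 and 11.79 against 48.63 and 65.61. Summed neutrophil markers were 405.6 and 206.5 at day 14 against 374.1 and 454, and 5 of 7 markers on the array passed the filter on low values. The other 3 of these 5 did not share the low non-diabetic values of S100a8 and S100a9. Csf3r, a receptor for the neutrophil growth factor, had 0.56 in diabetic and 0.14 in non-diabetic pools, Fcgr3a, an Fc receptor, -0.25 and 0.65, and Ncf1, an oxidase subunit, -0.20 and -0.03. Mmrn1, a protein of platelets and endothelium, read 97.93 and 15.7 against 76.11 and 125.4. Dnajb9, a co-chaperone of the endoplasmic reticulum, read 360.6 and 103.1 against 297.8 and 414.6. Ces1d, a carboxylesterase of fat stores, read 214.3 and 123.6 against 152.8 and 502, and Slc2a13, a proton and inositol carrier, read 67.22 and 9.817 against 43.55 and 64.33. In S100a9, S100a8, Mmrn1, Dnajb9, Ces1d and Slc2a13 the non-diabetic day 14 pool was the lowest of the 4. This follows largely from the rule of their class.

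Among genes higher in non-diabetic pools alone, Brinp2, a neural protein, read 7.468 at day 14 in the diabetic and 253.7 in the non-diabetic pool, against 6.807 and 4.603 after sham. Lcn2, an iron-siderophore binder of neutrophils and injured tissue, read 57.87 and 225.4 against 78.34 and 48.16. Cryl1, a crystallin-like enzyme of sugar metabolism, read 788.4 and 1368 against 845.6 and 313. Tmem86a, a lysoplasmalogenase, read 69.28 and 238.6 against 91.08 and 59.97, and its other probe sets had smaller non-diabetic differences of 0.50 and 0.83. Fxyd3, a regulator of the sodium pump, read 8.24 and 86.13 against 15.63 and 17.42. In each the non-diabetic day 14 pool was above the other 3, again largely by the rule of their class. Mcpt1l1, a mast cell protease, read 61.68 and 112 against 92.29 and 31.22, beside summed mast cell markers of 274.4 and 444.5 at day 14 against 340.7 and 299.1 after sham. Proliferation genes leaned the same way, with medians of 0.42 in diabetic and 1.11 in non-diabetic pools over the 7 of 16 that passed the filter on low values. Cdk1, the kinase of mitotic entry, read 15.86 and 89.32 at day 14 against 7.759 and 16.97 after sham. Endothelial markers had medians of -0.14 and 0.27, with 5 of 15 above 0 in diabetic and 11 of 15 in non-diabetic pools, and 4 below 0 in both. Eng, a TGF-beta co-receptor of vessels, was above 0 in both at 1.15 and 1.03. Emcn, the endomucin of capillaries and veins, had -0.30 and -0.53. Flt1, a receptor for Vegfa, had -0.34 and -1.05. Its other probe sets did not share the non-diabetic fall, at -0.03 and -0.08 for one and -0.47 and 0.05 for the next. Aplnr, the apelin receptor, had 0.42 and 1.06, while its second probe set had -0.11 and -0.16.

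Against the earlier days, many genes of inflammation were lower at day 14. Relative to the mean of days 1 and 7, which uses no sham array, limma called 1446 probe sets higher (7.76%) and 2844 lower (15.3%) at day 14, or 750 genes higher (7.06%) and 1451 lower (13.7%). The split depended on scaling, with 1855 probe sets higher and 2683 lower at equal array medians and 2190 higher and 2151 lower after quantile normalization. On the inflammation list 11 of 22 genes fell and 0 rose. They were Ccl2, Ccl3, Ccl7, Ccl20, Cxcl1, Il1b, Il1r2, Reg3b, Sele, Selp and Tnfaip6. Ccl2, the chemokine that recruits monocytes, read 2515 and 1050 at day 1 in diabetic and non-diabetic pools, 355.2 and 626.4 at day 7, and 262.2 and 66.08 at day 14. Its difference was -2.57 with an adjusted p of 0.01094 in limma. Ccn1, a matricellular protein of early injury, read 3871 and 1520 at day 1, 1338 and 1191 at day 7, and 69.81 and 75.96 at day 14. Its difference was -4.31 (limma adjusted p 2.289e-05), and its day 14 values lay near its sham values of 81.43 and 68.3. Ranbp1, a nuclear transport factor, fell by 3.53 on the log2 scale, with a limma adjusted p of 8.044e-06.

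The matrix lists had calls in both directions, beside 7.06% of all genes called higher and 13.7% called lower. On the collagen list 4 of 14 rose against the mean of days 1 and 7, namely Col1a1, Col5a1, Col6a1 and Col14a1, and 0 fell. Col1a1 was dim at day 1, at 108.8 in the diabetic and 154.4 in the non-diabetic pool, and bright at day 7, at 3510 and 3344, so its rise of 1.65 (limma adjusted p 0.04056) rests on day 1. On the matricellular list 2 of 13 fell, Tnc and Ccn1, and 0 rose, with a median of -0.72 over the list. That count of falls is near the share of all genes called lower. Tnc fell by 2.13 on the log2 scale. Among proteases and inhibitors 3 of 12 fell, namely Adamts1, Adamts4 and Plau, and 0 rose. Of the 80 genes higher than sham in both conditions, 13 (16.2%) rose against the earlier days and 0 fell. Of the 27 lower in both, 17 (63%) fell, and of the 379 lower in non-diabetic pools alone, 214 (56.5%) fell. Both comparisons use the day 14 arrays, so these shares are not independent of the classes. The steepest named rise was Fcrla, an Fc receptor relative of B cells, at 3.15 with a limma adjusted p of 9.443e-05. It read 133.4 and 225.6 at day 14 in diabetic and non-diabetic pools and 128 and 100.2 after sham, but only 3.437 to 6.962 on the day 1 and day 7 arrays. The day 1 and day 7 arrays also stood apart in the 3' to 5' difference of beta-actin, a sign of RNA quality, at 0.975 to 0.994 against 0.48 and 0.51 at day 14, and its part in these calls was not tested. Against the mean of days 28 and 56, limma called 0 probe sets higher (0%) and 0 lower (0%), with 2147 higher and 1698 lower at an unadjusted p under 0.05 and a smallest adjusted p of 0.1659.

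Array median intensities over the series lay between 28.9 and 34.8. The log2 difference between 3' and 5' beta-actin probe sets was 0.48 and 0.51 at day 14 and 0.485 and 0.499 after sham, against 0.975 to 0.994 at days 1 and 7 and 0.365 to 0.586 at days 28 and 56. The 5' hexokinase control probe set read 61 and 38.2 at day 14 in diabetic and non-diabetic pools, against 31.6 and 29.2 after sham. On the second principal component, with 21.6% of the variance, the day 14 arrays lay at 26.3 and 54.2. The sham arrays lay at 0.115 and 11.8, and the non-diabetic day 14 array was the highest of the 12. The leading component held more, 40.1%, and parted the day 14 arrays to either side of sham. It put the diabetic pool at -2.47 and the non-diabetic pool at -35.9, against -18.3 and -16.2 after sham. Arrays of days 1 and 7 scored 44.3 to 52.8 there. The part of these differences in the results was not tested. Markers of ventricular cardiomyocytes were bright on all 4 arrays, with sums of 48420 and 50670 at day 14 in diabetic and non-diabetic pools and 45810 and 51780 after sham. Summed atrial markers, a list that holds Nppa, were 12250 and 9568 against 9887 and 6093. Myl7, the atrial myosin light chain, read 151.1 and 456.4 against 43.87 and 157.2. Of the 8 atrial markers kept, 6 were above 0 in diabetic and 3 in non-diabetic pools, and Nppa and Myl7 were above 0 in both. Kcnj3, an atrial potassium channel subunit, had -0.40 and -0.39. Its other probe sets disagreed, at -0.51 and -0.25 for one and 0.09 and 0.50 for the next. Whether the tissue pieces differed in place of origin was not tested.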

How the data were processed

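RNA of 3 rats was pooled for each of 12 Affymetrix rat arrays, per the labels. The authors deposited 1 linear intensity per probe set and array, made with Affymetrix Expression Console and PLIER per the submitters' processing notes, with versions, background correction and scaling not stated. From the deposited intensities log2(intensity + 16) was computed, with no further scaling. Of 31099 probe sets, 57 controls were removed, and the 18625 with a mean above the 40th percentile (5.2 on the log2 scale) were kept. By GEO's platform annotation 20826 of the 31042 others had 1 symbol, 436 several and 9780 no entry, and probe sets with several symbols were not named. A gene is its brightest probe set. limma 3.58.1 in R 4.3.3 fitted 12 arrays with the time point and diabetes (5 residual degrees of freedom), with a variance trend. Adding diabetes at sham and at day 14 (3 residual degrees of freedom) gave the test of the difference between conditions. p-values were adjusted over all kept probe sets. Each group is 1 pooled array, so p-values measure only the spread between these pools.

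Genes are named by rule: up to 12 per direction with the smallest p among those at least 1 in size in both conditions, 6 per direction for each condition alone, 6 of opposite direction, 4 per list by smallest p, 20 always looked up, and 6 per direction against earlier days. Other genes, and the members that fill a stated count, were named after their values were seen. The members of each list and the lists themselves were chosen with earlier results of these data known. Promoter windows are RefSeq's, build GRCr8. The fits were checked on simulated data. Alternatives were other offsets, scalings, filters, variance models, size limits and sets of arrays.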

Additional observations from a re-analysis of the deposited data

Results flagged for a closer look

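In 11 genes the 2 diabetic pools and the 2 non-diabetic pools differed by at least 1 in opposite directions between day 14 and sham. The values below are the diabetic minus the non-diabetic difference on the log2 scale. Dbp had -4.67 and was the only one lower in diabetic and higher in non-diabetic pools. The other 10 were higher in diabetic and lower in non-diabetic pools. Among these, Fibin had 4.37, Npy 3.90, Bmal1 3.48, Dusp6 3.11 and Tmem100 2.93. Gask1b, a Golgi kinase relative, had 2.67, the chaperone Hsp90b1 2.59, Bend6 2.56, the immunoglobulin joining chain Jchain 2.11 and the magnesium transporter Magt1 2.11. With limma the adjusted p of this difference was 0.9995 for each of the 11, so none passed the test. Dusp6 had further probe sets that did not share its direction, and the second probe set of Fibin was near 0 in non-diabetic pools.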

How the results depend on the processing

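The limits are those of 1 pool per group: offset, size limit and the day 28 pair decide how many genes are counted. Of 3836 values of single genes, 3788 kept their sign. Much of this was set in advance, because leaving out other days' arrays or the diabetes term cannot change the day 14 minus sham estimate. Many of these genes were also named for the size or p of that change. Day 14 against sham gave 47 probe sets without the day 28 arrays and 179 on its 4 arrays alone, against 0 with all 12. Without each of the 4 arrays in turn it gave 0 to 0. The diabetes term pairs the arrays by condition, and without it 0 passed. No paired analysis was possible beyond this because each group holds 1 array. With an offset of 1, 138 genes were higher and 54 lower in both conditions (192 in all), 177 higher and 71 lower in diabetic pools alone, 196 and 699 in non-diabetic pools alone, and 21 and 5 opposite. With an offset of 64 these were 32 and 7 (39 in all), 60 and 24, 30 and 119, and 4 with diabetic pools higher. At a size limit of 1.5 they were 12 and 4 (16 in all), 36 and 11, 9 and 23, and 0 with diabetic pools higher. With the other condition held under 0.25, genes of 1 condition alone numbered 58 and 25 in diabetic and 55 and 220 in non-diabetic pools. After quantile normalization 170 genes were higher in non-diabetic pools alone, and 2 opposite with those pools higher. Of the 107 genes of the same sign in both conditions, 97 kept their class at equal array medians and 91 of 106 after quantile normalization, and all kept their sign. Day 14 against days 1 and 7 gave 2808 probe sets with a filter at the 60th percentile, where fewer were tested, against 4290. Against day 1 alone it gave 2893 and against day 7 alone 2999, a split chosen after seeing the data. Over all alternatives 34 counts moved by over 1.5 times and 100 did not. Under either scaling the plotted list medians kept their sign, except the non-diabetic ones of adult contractile genes, ventricular markers, potassium and sodium channels and inflammation, which lie near 0. The offset shrinks the differences of dim genes.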
